A study of Rattus norvegicus with 9 samples.

Results

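The genes described here are the 2458 that one of the study's tables lists for 3 heart libraries headed Cal and 3 headed Con, out of 5760 genes listed in either of its tables. All 2458 were kept, and no value was used here to choose among them. All animals were Sprague Dawley rats. The libraries headed Con carry the label Control and come from sham-operated rats that were given distilled water by mouth, and they are called sham libraries below. The label Cal stands for rats whose left anterior descending coronary artery was tied, which starves part of the left ventricle of blood, and which received calycosin, an isoflavone of Astragalus root, at 80 mg per kg per day by mouth for 28 days from the day after surgery. Another group, labelled Model, had the tied artery and distilled water.

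The headings of this table disagree with each other. Its sample columns are headed Cal, while the column that holds their mean is headed Model, and the mean of the Cal columns matches that Model column to within 3.3e-05 normalized counts. The libraries are therefore named by their sample heading (Cal libraries), and whether the rats behind them had received calycosin or water cannot be told apart within the table. The paper counts 2458 targets of its heart failure model, which is the number of genes listed here. Read that way, the comparison is of the water-treated Model group with sham rats. In the study's other table the mean columns headed Cal and Model are exchanged against the sample columns in the same way. The comparison asks how hearts with a tied artery differed from sham-operated hearts, and any treatment effect is contained in it. Each library came from 1 animal drawn at random from its group, and the sources do not say whether scar, border or remote muscle was taken.

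A heart wall is built of cardiomyocytes, with capillaries, fibroblasts, mural cells and resident macrophages between them. In inflamed tissue, NF-kB dimers leave their IkB inhibitors, enter the nucleus and switch on genes for cytokines, chemokines and adhesion molecules, together with the genes of their own inhibitors. Quiescent endothelium runs a different set of genes: laminar flow keeps the factors Klf2 and Klf4 high, Notch signalling maintains Hey1 in arteries, and VEGF acts through the receptor Kdr.

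The values are read counts divided by 1 size factor per library, here called normalized counts, and the 6 libraries held 3270460 to 4659882 reads on the listed genes. Total depth is unknown because only listed genes were used. The authors kept genes with an adjusted p of at most 0.04996 in their own test of the same libraries, so every gene here was already selected for a difference, and a gene that is not listed was not analysed. Of 20 cardiomyocyte markers 6 were listed, and they summed to 521912 to 713430 normalized counts per library, led by Myh6, the main adult rodent heart myosin. In whole tissue, fewer cells of a type and less RNA per cell cannot be told apart.

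A gene was called when its log2 fold change exceeded 1 in either direction with an adjusted p under 0.05 (limma, Benjamini-Hochberg over the listed genes), and 712 genes were called, which is 29.0% of the list. Of these, 443 (18.0%) were higher and 269 (10.9%) were lower in the Cal libraries. The counts of called genes in each list below are to be set against these shares. A gene with hardly any reads in the sham libraries could be listed only as higher, so the selection fixed the direction of such members. The rises reached much further than the falls. A log2 fold change above 3 was reached by 117 genes and one above 5 by 34, whereas 8 genes fell below -3 and none below -5. Genes called higher took 11% to 12.6% of the normalized counts of listed genes in the Cal libraries against 2.88% to 3.75% in the sham libraries, and genes called lower took 0.428% to 0.620% against 1.54% to 1.92%.

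The split between directions depended on scaling. The median log2 fold change of all listed genes was 0.37 with the authors' size factors, -0.04 after quantile normalization and 0.09 with median-ratio factors, and the calls then split into 348 higher and 387 lower, and 342 higher and 447 lower. Small changes on the log2 scale are therefore read below as near that shift. The adjusted p alone separated nothing further, since 99.8% of the listed genes passed it (60.6% on the higher and 39.2% on the lower side), and the groups of libraries did not overlap in 97.4%. Non-overlap stated for a gene below therefore does not set it apart from the list.

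**Figure D1:**
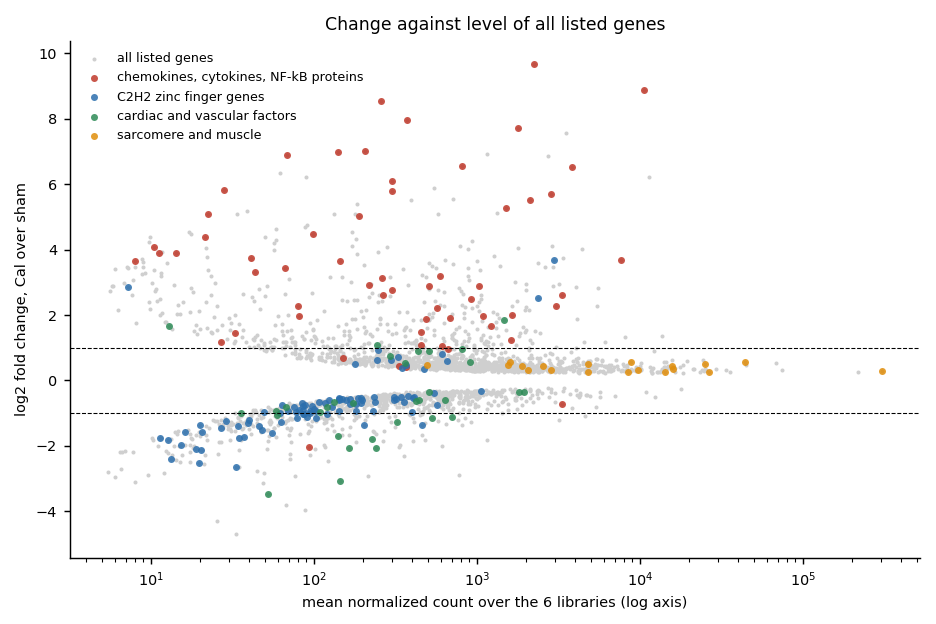
Log2 fold change of all 2458 listed genes (vertical axis, Cal over sham libraries, 3 each) against their mean normalized count over the 6 libraries (horizontal log axis), with dashed lines at 1 and -1. Chemokine, cytokine and NF-kB genes (red) reach up to 9.67, zinc finger genes (blue) lie mostly below 0 at low counts, and muscle genes (orange) lie at high counts between 0.24 and 0.56.

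Chemokines, the secreted proteins that direct leukocytes out of the blood, rose together. Of 20 listed chemokine genes 18 were called higher and none lower, with a median log2 fold change of 4.05, where 18.0% of all listed genes were called higher. Cxcl3 and Cxcl11 had hardly any reads in the sham libraries and could be listed only as higher. Cxcl1, which draws neutrophils, had normalized counts of 20439, 22178 and 21296 against 33.5, 84.5 and 29.4 in the Cal and sham libraries. The lowest Cal library lay far above the highest sham library, and the log2 fold change was 8.89 ± 0.34 (SE, adjusted p = 6.6e-07). Ccl2, which draws monocytes, was at 6313, 8526 and 7848 in the Cal libraries and 121, 101 and 42.5 in the sham libraries (6.52 ± 0.34, adjusted p = 2.75e-06). Cxcl10, an interferon-induced ligand that draws T cells, was at 1770.3, 1836 and 7139 against 10.2, 34.4 and 5.06 in the Cal and sham libraries (7.73 ± 0.70, adjusted p = 5.21e-05). The Cal libraries of Ccl2 lay close together, while 1 Cal library of Cxcl10 stood well above the other two. Ccl4 and Ccl3, a neighbouring pair of macrophage chemokines, rose by 7.95 ± 0.36 and 7.02 ± 0.51 from 1 to 7 reads per sham library. Per kilobase of gene length, the Cal libraries held 11362 normalized counts of Cxcl1, 6645 of Ccl2, 3682 of Ccl7, 2176 of Cxcl2 and 1591 of Cxcl10. The member that went the other way was Cxcl12, a retention signal for CXCR4-bearing cells, with a log2 fold change of -0.71 that stayed within the fold limit.

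The cytokine genes showed the same direction, 14 of 15 listed members being called higher, against 18.0% of all listed genes. Il6, Il10, Il12b, Il27, Csf2, Csf3 and Ifnb1 had hardly any reads in the sham libraries. They could be listed only as higher, so the count overstates how far the list moved together. Il6, the main inducer of the acute-phase response, had 243, 719.9 and 589 in the Cal libraries and 0, 0 and 1.01 in the sham libraries. The sham value rests on 1 read over 3 libraries, so the ratio of the group totals carries a 95% counting interval of 286 to 63069. The colony-stimulating factors, which drive the making and survival of granulocytes and macrophages, rose as a set. Csf3 had 50.6, 213 and 149 in the Cal libraries and 0 in each sham library and was at least 47-fold higher against a floor of 3 reads per sham library. Csf2 had 53.6, 52.6 and 61.9 in the Cal libraries and 0 in each sham library, at least 19.2-fold higher on the same floor. Csf1, already abundant in sham hearts, had 13451, 13778 and 15661 against 1031, 1417 and 966 in the Cal and sham libraries (3.67 ± 0.14, adjusted p = 7.25e-07). No library of one group reached the other in any of these 3 genes. Il1a, an alarmin that also signals through the interleukin-1 receptor, rose by 7.0 ± 0.55, and its antagonist Il1rn by 5.09 ± 0.36. The type I interferon gene Ifnb1 had 26.8, 1.05 and 58.1 in the Cal libraries and 0 in each sham library, so that 1 Cal library held a single read, and its change did not pass after quantile normalization (adjusted p = 0.0568). Il16, a chemoattractant cytokine made by lymphocytes, was the cytokine that fell, from 150.1 ± 11.4 to 36.6 ± 7.90 normalized counts (SD, n = 3 each).

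**Figure D2:**
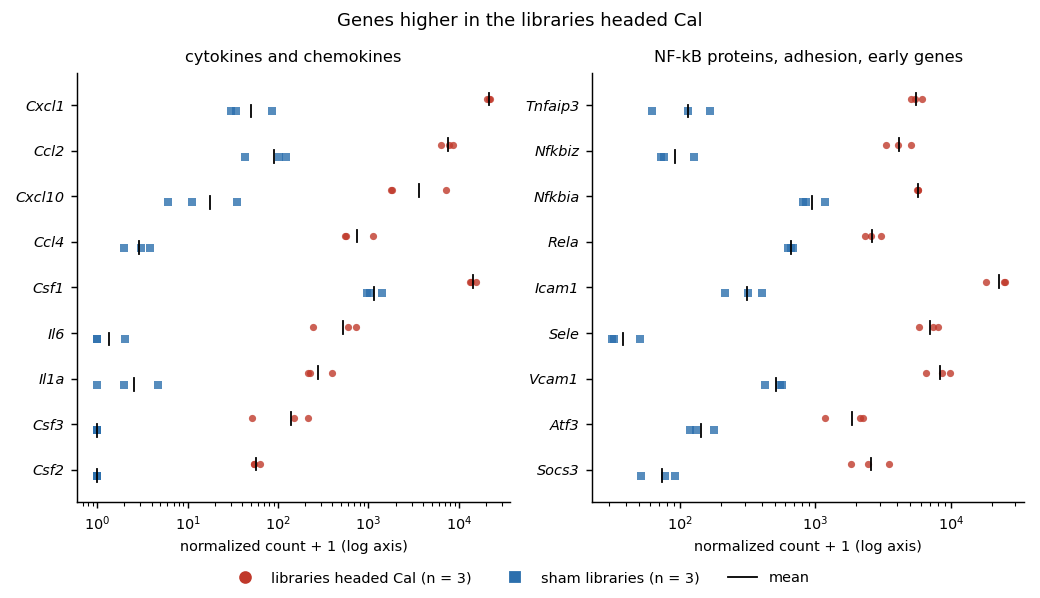
Normalized count plus 1 (log axis) of 18 genes called higher, in each of 3 libraries headed Cal (red) and 3 sham libraries (blue), with group means as bars. In every gene shown the libraries of the groups do not overlap, as in 97.4% of all listed genes, and Csf2 and Csf3 have no read in any sham library.

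The listed chemokine receptors mostly moved the other way. Of 6 listed chemokine receptor genes 4 were called lower and 1 higher, where 10.9% of all listed genes were called lower and 18.0% higher. Cxcr4, the receptor of Cxcl12, had 8.25, 6.31 and 16.2 against 130.5, 184 and 184 in the Cal and sham libraries, the largest fall of the table among genes with at least 100 normalized counts in the higher group. Ccr2, the monocyte receptor of Ccl2, had 23.7, 9.47 and 7.62 in the Cal libraries and 55, 62.9 and 49.6 in the sham libraries (-2.11 ± 0.41, adjusted p = 0.00232), and Cx3cr1, the fractalkine receptor of macrophages, had 83.6, 52.6 and 66.7 against 244, 175 and 173 in the Cal and sham libraries (-1.54 ± 0.22, adjusted p = 0.000677). Both fell without overlap while their ligands Ccl2 and Cx3cl1 rose by 6.52 and 1.49. The scavenging receptor Ackr2 fell by 1.53 on the log2 scale. Ccrl2, a non-signalling chemerin receptor, was the one called higher, at 2.28. Among 12 listed cytokine receptors and antagonists 8 were called higher, including Cd40 (2.67) and the interleukin-4 receptor chain Il4ra (1.47), and none lower.

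Genes of the NF-kB pathway rose as well. Of 24 listed genes for its subunits, kinases and inhibitors 21 were called higher and none lower, where 18.0% of all listed genes were called higher. All 5 subunit genes were called higher, Rel (2.5 ± 0.14), Relb (2.2 ± 0.14), Rela (2.0 ± 0.11), Nfkb2 (1.98 ± 0.14) and Nfkb1 (1.25 ± 0.19), although Nfkb1 was below the fold limit after quantile normalization (0.80) and with median-ratio factors (0.96). The inhibitor genes ranged more widely, from 1.09 for Nfkbib (0.81 after quantile normalization and 0.80 with median-ratio factors) and 1.66 for Tnip1 to 5.71 for Tnfaip3. Tnfaip3, the ubiquitin-editing enzyme A20 that shuts the pathway down, had 5116, 5396 and 6145 in the Cal libraries and 114, 167 and 60.7 in the sham libraries (5.71 ± 0.31, adjusted p = 2.93e-06). Nfkbia, the classical IkB-alpha, had 5762, 5593 and 5706 against 807, 1186 and 848 in the Cal and sham libraries (2.61 ± 0.14, adjusted p = 2.75e-06). Its 3 Cal libraries lay close together, 6.01-fold above the sham libraries on average. Nfkbiz, a nuclear IkB protein needed for Il6 transcription, had 5066, 3329 and 4053 in the Cal libraries and 75.5, 126 and 70.9 in the sham libraries (5.53 ± 0.23, adjusted p = 9.75e-07). Nfkbid (4.48), Tnip3 (3.67), Bcl3 (3.18) and Nfkbie (2.91) rose as well.

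The DNA next to the start of several of these genes carries the letters that NF-kB dimers read. The 120 bases before the annotated start are printed for 8 called genes, chosen because a kB match lies in that stretch. They are rat RefSeq promoters of build GRCr8, read 5′ to 3′ on the gene's strand, with capitals marking each match on either strand to the kB motif, which was searched as GGG, 2 bases of any kind, TT, 1 base of any kind and CC.
Cxcl1 (chr14:17479322-17479441, minus strand): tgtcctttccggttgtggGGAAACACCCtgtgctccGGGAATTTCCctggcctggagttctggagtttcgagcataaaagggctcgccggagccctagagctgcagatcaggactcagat
Cxcl2 (chr14:17467256-17467375, minus strand): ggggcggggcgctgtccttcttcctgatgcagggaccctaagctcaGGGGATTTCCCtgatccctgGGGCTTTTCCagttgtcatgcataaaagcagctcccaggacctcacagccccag
Il6 (chr4:5894576-5894695, minus strand): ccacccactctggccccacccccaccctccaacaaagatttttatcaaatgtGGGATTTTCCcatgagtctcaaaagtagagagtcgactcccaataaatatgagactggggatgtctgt
Vcam1 (chr2:206742784-206742903, minus strand): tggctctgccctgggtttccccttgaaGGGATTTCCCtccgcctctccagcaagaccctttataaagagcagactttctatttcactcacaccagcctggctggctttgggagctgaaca
Nfkbia (chr6:78597073-78597192, minus strand): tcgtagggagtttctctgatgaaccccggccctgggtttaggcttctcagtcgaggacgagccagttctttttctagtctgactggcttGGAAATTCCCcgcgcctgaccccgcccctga
Tnfaip3 (chr1:15543980-15544099, minus strand): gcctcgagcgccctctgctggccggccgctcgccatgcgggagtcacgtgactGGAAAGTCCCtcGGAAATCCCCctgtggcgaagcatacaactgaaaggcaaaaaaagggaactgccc
Nfkb2 (chr1:255108254-255108373, plus strand): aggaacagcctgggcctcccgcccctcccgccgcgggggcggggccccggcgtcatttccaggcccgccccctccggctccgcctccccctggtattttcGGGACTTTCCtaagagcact
Nfkbiz (chr11:58251601-58251720, plus strand): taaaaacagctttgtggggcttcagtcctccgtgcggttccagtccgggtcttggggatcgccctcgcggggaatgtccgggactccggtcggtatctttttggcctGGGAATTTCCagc
In Cxcl2 a pair of matches overlaps by all but 1 base, and the block that follows is a separate match. In Nfkbia and Tnfaip3 the matches are on the opposite strand, and in Nfkbiz the match ends 4 bases before the start. Over the 300-base promoter window (250 before and 50 after the start), 4.95% of 27457 rat promoters held the motif. Of the 1800 promoters found for listed genes 7.78% held it, and of the 20 found for the NF-kB list 9 did (45%). The promoter table is incomplete. Fewer than 80% of all listed genes, and of the sets that follow, had an entry, so these counts cover part of each set. The motif was in 44 of 293 promoters found for genes called higher, 9 of 176 called lower and 87 of 1331 not called. It was in 5 of 13 for chemokines, 1 of 8 for cytokines and 0 of 6 for interferon-stimulated genes. For immediate early and Klf genes 2 of 24 held it, and for zinc finger genes 0 of 62. A match is a stretch of letters and says nothing about binding in these hearts.

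Genes that let leukocytes stick to the vessel wall rose in the same libraries. Sele, or E-selectin, which activated endothelium alone makes, had 5800.0, 8008 and 7359 against 49.4, 31.4 and 30.4 in the Cal and sham libraries (7.56 ± 0.20, adjusted p = 1.33e-07). Icam1, the ligand of leukocyte integrins, had 18106, 24992 and 24590.0 in the Cal libraries and 316, 402 and 213 in the sham libraries (6.21 ± 0.22, adjusted p = 6.1e-07), the largest difference in mean normalized count of any called gene. Vcam1, which holds monocytes and lymphocytes, had 8610.2, 6587 and 9894 against 547, 563 and 423 in the Cal and sham libraries (4.02 ± 0.16, adjusted p = 8.52e-07). The groups were far apart in all 3 genes. P-selectin, Selp, rose by 5.88 ± 0.33. The other 7 of the 11 listed adhesion genes were within the fold limit. Of these 5 were negative, among them Pecam1 (-0.44), Jam3 (-0.57) and Podxl (-0.83), which hold endothelial cells to one another or mark their surface. The rest were positive, among them the endothelial marker Esam (0.47). After quantile normalization the median of the 11 was -0.01.

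Genes that sense microbes and tissue damage rose in 12 of 14 listed cases, with none called lower. Nlrp3, the sensor of the inflammasome that matures interleukin-1 beta, had 975, 675 and 669 in the Cal libraries and 18.6, 16.7 and 12.1 in the sham libraries (5.52 ± 0.22, adjusted p = 8.28e-07). Tlr2 (3.69), its co-receptor Cd14 (3.44), Nod2 (3.16) and the formyl peptide receptor Fpr1 (3.46) rose, whereas complement C3 (0.42, and -0.07 after quantile normalization) stayed within the fold limit. Acute-phase and secreted defence genes were called higher in 8 of 10 listed cases. Ptx3, a soluble pattern-recognition protein, had 1069.8, 3478 and 2353 against 15.8, 10.8 and 23.3 in the Cal and sham libraries (6.93 ± 0.42, adjusted p = 5.54e-06). Its first Cal library was the lowest, as it was for Saa3 (11.3, 52.6 and 37.1 in the Cal libraries and 0, 0 and 1.01 in the sham libraries) and for Lcn2 (145, 425 and 329 against 46.6, 34.4 and 73.9 in the Cal and sham libraries). Cal library 1 remained above every sham library in all 3 genes.

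Markers of neutrophils moved with these genes. Of 22 markers 7 were listed, 6 of them called higher, and they summed to 489, 1161 and 1050.2 normalized counts in the Cal libraries and 106, 156 and 149.8 in the sham libraries. S100a8, an abundant granulocyte protein, had only 13.4, 53.7 and 57.1 in the Cal libraries and 6.52, 7.86 and 2.02 in the sham libraries, and S100a9 had 35.1, 101 and 126 against 6.52, 20.6 and 12.1 in the Cal and sham libraries. Acod1, the itaconate enzyme, and Clec4e rose by 6.21 and 6.35, and activated macrophages make both as well. The defining neutrophil markers Csf3r, Cxcr2, Mmp8, Mmp9 and Ly6g were not listed. The part of such cells in the rises above was not tested.

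Interferon-stimulated genes were called higher in all 11 listed cases and interferon-inducible GTPases in all 3. Irf1, the factor that bridges NF-kB and interferon responses, had 6408, 4776 and 7748 in the Cal libraries and 372, 635 and 402 in the sham libraries (3.76 ± 0.23, adjusted p = 5.58e-06). Isg15, a ubiquitin-like antiviral protein, had 1267, 751 and 2709.9 against 83.9, 376 and 102 in the Cal and sham libraries, and Ifit1, which binds viral RNA, had 1728, 1661 and 5604 in the Cal libraries and 148, 932 and 214 in the sham libraries. In Isg15, Ifit1 and Mx2 the second sham library stood several-fold above the other sham libraries and the third Cal library above the other Cal libraries, though the groups did not overlap. Accordingly the errors were wide, with 3.2 ± 0.61 (adjusted p = 0.0022) for Isg15, 3.02 ± 0.69 (adjusted p = 0.0046) for Ifit1 and 2.61 ± 0.69 (adjusted p = 0.00772) for Mx2. Without the second sham library the 3 values were 3.87, 3.82 and 3.3.

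Immediate early genes, which cells switch on within minutes of a stimulus without new protein, were called higher in 20 of 32 listed cases. Atf3, a stress-induced repressor of the ATF family, had 2127, 1183 and 2247 against 130.5, 178 and 117 in the Cal and sham libraries (3.66 ± 0.26, adjusted p = 1.22e-05). Junb rose by 3.48 ± 0.14, Fosb by 4.11 ± 0.34, Fos by 2.81 ± 0.34, Egr1 by 2.89 ± 0.46, Myc by 3.4 ± 0.15 and the synaptic plasticity gene Arc by 3.87 ± 0.22. Of 20 listed AP-1, ATF and C/EBP genes 12 were called higher, while Atf4 (0.58) and Creb1 (0.43) stayed within the fold limit and Maf, a factor of resident macrophages, fell by 1.54 ± 0.16 on the log2 scale. Klf2 and Klf4 were the members of the early-gene list called lower and are described with the endothelial genes.

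Several genes that restrain these responses rose as well. Socs3, which blocks signalling of the interleukin-6 receptor, had 1833, 3501 and 2423 in the Cal libraries and 76.4, 91.3 and 50.6 in the sham libraries (5.12 ± 0.27, adjusted p = 2.75e-06), while Stat3 (0.42, and -0.05 after quantile normalization) and Jak2 (0.64) were within the fold limit. Zc3h12a and Zfp36, which destroy cytokine mRNAs, rose by 4.03 ± 0.13 and 3.7 ± 0.20. The feedback inhibitors of MAP kinases divided. Dusp2 rose by 5.08 ± 0.23 and Spry4 by 2.08 ± 0.12, but Dusp6, the ERK-specific phosphatase, had 206, 166 and 151 against 636, 690.5 and 568 in the Cal and sham libraries and fell by 1.86 ± 0.15, and Spry1 fell by 1.3 ± 0.14. The groups did not overlap in any of these 4 genes.

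Several enzymes and remodelling genes were among the large rises. Ptgs2, the inducible cyclooxygenase, had 989, 997 and 1370.2 in the Cal libraries and 30.7, 38.3 and 26.3 in the sham libraries (5.09 ± 0.19, adjusted p = 6.6e-07). Pfkfb3, which speeds glycolysis, rose by 4.12 ± 0.30, whereas 16 of the 19 listed hypoxia and glycolysis genes, among them Ldha (0.37) and Hk2 (0.35), were not called, and both were negative after quantile normalization (-0.08 and -0.13). Rnd1, whose protein loosens the actin skeleton, had 5352, 5444 and 5415 against 49.4, 49.1 and 37.5 in the Cal and sham libraries (6.88 ± 0.13, adjusted p = 1.89e-08), with 3 nearly equal Cal values. The anti-apoptotic Bcl2a1 copies Bcl2a1a, Bcl2a1b and Bcl2a1d rose by 5.08, 5.17 and 4.74; they are near-identical in mouse, so the counts of each are uncertain. Hspa1a (2.42) and Hspa1b (2.78), the inducible Hsp70 genes, are likewise a near-identical pair.

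Matrix genes moved in both directions. Of 18 listed proteases and inhibitors 8 were called higher and 1 lower, Mmp28 (-1.19, or -0.73 without the second Cal library). Of 20 listed matrix glycoproteins and integrins 6 were called higher (4 without the second sham library) and 1 lower. Adamts4, which cuts proteoglycans, had 565, 2314 and 1341 in the Cal libraries and 39.1, 23.6 and 16.2 in the sham libraries (5.55 ± 0.49, adjusted p = 4.59e-05). Plaur (4.1), Mmp13 (3.54) and Timp1 (2.12) rose, as did thrombospondin 1, Thbs1 (2.85). Of the hyaluronan synthases Has1 (5.39) and Has2 (2.66) rose and Has3 (-1.48) was the matrix gene called lower. Collagen genes were nearly missing from the list, with Col27a1 alone present at 0.78. The fibroblast proteoglycans Dcn (-0.34) and Lum (-0.67) lay on the lower side within the fold limit. Tgfb1 rose by 1.23 ± 0.13 but by 0.83 after quantile normalization and 0.95 with median-ratio factors, both below the fold limit.

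**Figure D3:**
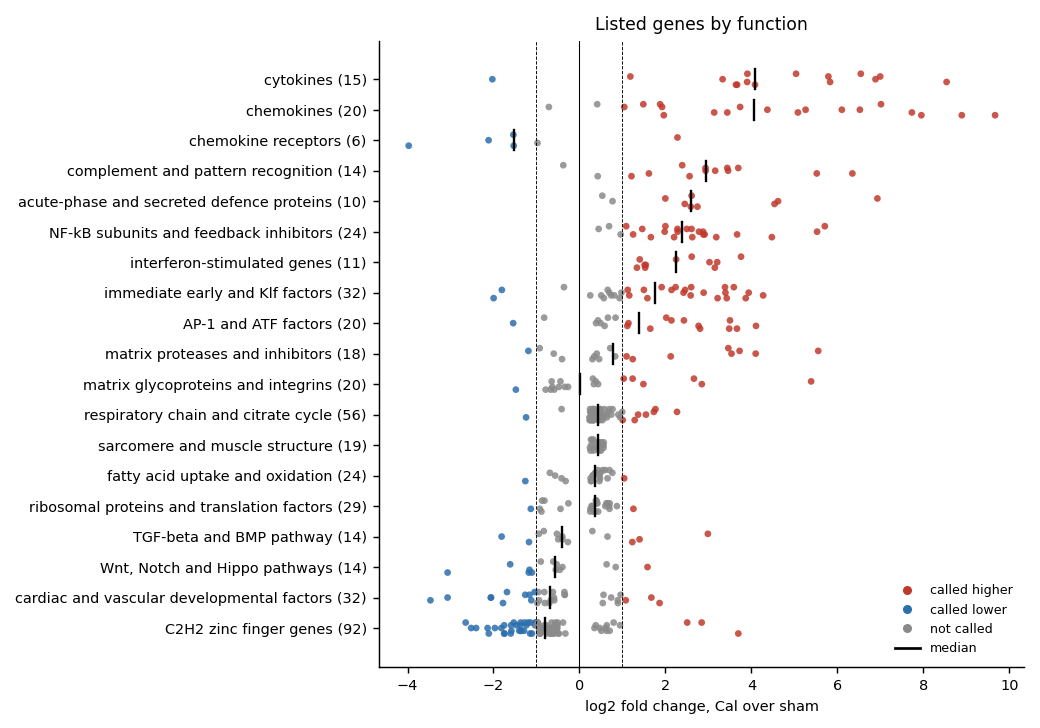
Log2 fold change (horizontal axis, Cal over sham libraries, 3 each) of the listed members of 19 function lists, with the number of members in parentheses, each point 1 gene and each bar the list median. Cytokines (median 4.08) and chemokines (4.05) stand at the top, sarcomere genes (0.43) cluster near the shift of all genes, and zinc finger genes (-0.80) lie below 0.

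Endothelial genes stood among the largest falls. Aplnr, the apelin receptor of capillary and venous endothelium, had 221, 165 and 175 against 1453, 1256 and 1418 in the Cal and sham libraries (-2.88 ± 0.13, adjusted p = 1.37e-06). Kdr, the main VEGF receptor, had 3783, 2303 and 2872 in the Cal libraries and 5714, 6739.9 and 6312 in the sham libraries (-1.09 ± 0.16, adjusted p = 0.000795), the largest fall in mean normalized count of any called gene. Cavin2, a caveolar coat protein, had 2413, 1639 and 1767 against 4006, 4768 and 4443 in the Cal and sham libraries (-1.2 ± 0.14, adjusted p = 0.000265). The sham libraries were the higher ones in all 3 genes, without overlap. The endothelial surface lectins Clec14a (-1.84) and Clec1a (-1.58), the membrane protein Myct1 (-2.3), the endothelial guanine exchange factor Arhgef15 (-1.27) and the secreted Egfl7 (-1.15) were called lower too. Without the second Cal library the values of Kdr and Egfl7 were -0.92 and -0.95, short of the fold limit, and Egfl7 was at -0.99 without the second sham library.

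Several transcription factors known from endothelium were among the falls. Klf2 had 531, 450.4 and 531 in the Cal libraries and 1455, 2234 and 1680.2 in the sham libraries (-1.81 ± 0.16, adjusted p = 4.24e-05), and Klf4 had 296, 214 and 231 against 956, 1080.4 and 910.0 in the Cal and sham libraries (-2.0 ± 0.14, adjusted p = 1.37e-05). Hey1, a Notch target of arterial endothelium, had 52.6, 22.1 and 21.9 in the Cal libraries and 225, 282 and 261 in the sham libraries (-3.07 ± 0.33, adjusted p = 0.000144). No Cal library of these genes reached a sham library, and Cal library 1 held more than the other two of Hey1. The log2 fold change was -2.06 ± 0.27 for Sox17, another arterial factor, -1.69 ± 0.24 for Nr2f2, the venous factor COUP-TFII, and -2.06 ± 0.23 for Meox2, which with Tcf15 sets the heart capillary programme of fatty acid uptake. Gata2 (-1.78), Lyl1 (-3.47) and Hhex (-2.82), factors shared by endothelium and blood precursors, were lower as well. Of 32 listed cardiac and vascular factors 10 were called lower and 3 higher, where 10.9% of all listed genes were called lower and 18.0% higher. The 3 higher members were Bcl6b (1.86), a transcriptional repressor of endothelium, Foxf1 (1.67, adjusted p = 0.0812 by limma after quantile normalization) and the epicardial factor Wt1 (1.08, or 0.84 without the second Cal library and 0.94 without the third sham library). The endothelial factor Sox7 was positive within the fold limit (0.96), and Erg (-0.59), Fli1 (-0.59) and Ets1 (-0.34) were negative within it. The muscle factors Nkx2-5 (0.56), Hand2 (0.89) and Tbx3 (0.74) were on the higher side within the fold limit.

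Pathways that act in these vessels shared the direction in part. Of 14 listed Wnt, Notch and Hippo genes 5 were called lower and 1 higher, with 3 called lower without the second Cal library. Over all listed genes 10.9% were called lower and 18.0% higher. The Notch members included Hey1, Heyl (-1.16) and Lfng (-1.61), with Hes1 (-0.61) within the fold limit. Id1, a direct target of BMP signalling, had 279, 189 and 178 against 603, 870.2 and 781 in the Cal and sham libraries (-1.81 ± 0.20, adjusted p = 0.000181), and the ligand Bmp4 was lower at -1.17 ± 0.23 (-0.98 without the first Cal library). Smad6 (-0.52), Smad7 (-0.83) and Id2 (-0.94) had negative values within the fold limit, and Id3 was at 0.30 (-0.08 after quantile normalization). The guidance ligand Efna1 (-1.42) was called lower, against the placental growth factor Pgf (1.44) and the epidermal growth factor receptor ligand Areg (3.76), which were called higher.

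**Figure D4:**
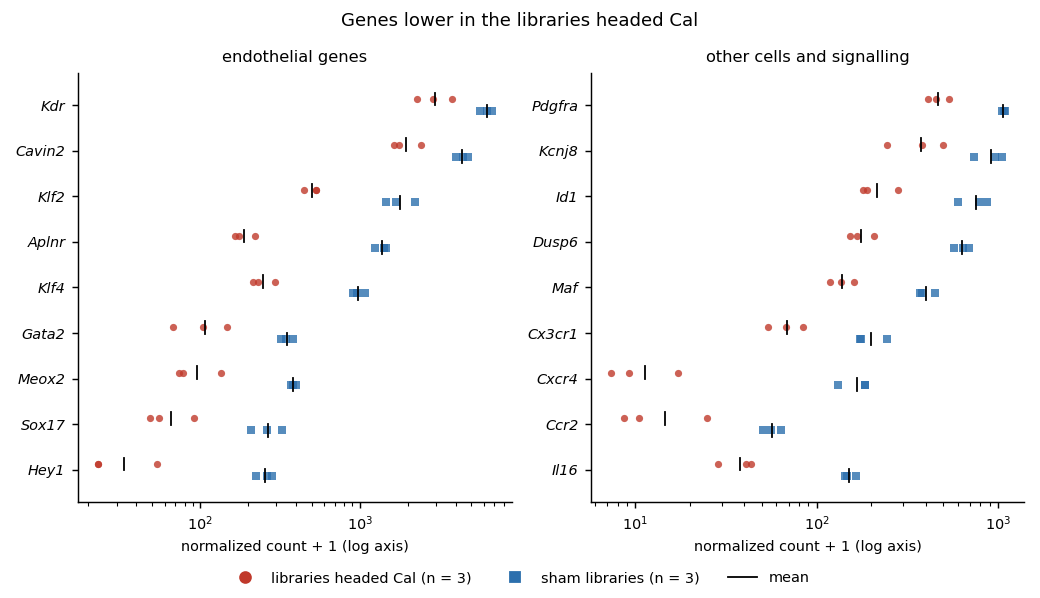
Normalized count plus 1 (log axis) of 18 genes called lower, in each of 3 libraries headed Cal (red) and 3 sham libraries (blue), with group means as bars. The groups do not overlap in any gene shown, as in 97.4% of all listed genes, and the lowest value shown is 6.31 for Cxcr4 in 1 Cal library.

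The general endothelial markers did not all fall. Of 14 listed markers 2 were called lower, Kdr and Egfl7 (none without the second Cal library), and 1 higher, the tight junction protein Cldn5 (1.3 ± 0.16), and their sums of 40650.3, 36199 and 41811 normalized counts in the Cal libraries and 42160.5, 51577 and 44449.5 in the sham libraries lay next to each other without overlap. Over all listed genes 10.9% were called lower and 18.0% higher. Cldn5 was below the fold limit after quantile normalization (0.89). Pecam1 (-0.44), Cdh5 (-0.46), Tek (-0.55) and Erg (-0.59) were on the lower side within the fold limit. S1pr1 was positive at 0.53 (0.05 after quantile normalization), and so was Esam at 0.47. The capillary markers had 3 members called lower of 10 listed, Aqp7 (-1.06), Tcf15 (-1.26) and Meox2, and 1 higher, Kcna5 (1.36, and 0.92 after quantile normalization). Without the second sham library Meox2 alone remained past the limit, with Aqp7 at -0.93 and Tcf15 at -0.99, and without the second Cal library Aqp7 was at -0.79.

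Among pericyte and smooth muscle markers 1 of 6 listed was called lower, and among fibroblast markers 1 of 5, where 10.9% of all listed genes were called lower. Each of these counts rests on 1 gene. Kcnj8, the potassium channel pore of pericytes, had 499, 242 and 379 in the Cal libraries and 741, 957 and 1048 in the sham libraries (-1.34 ± 0.25, adjusted p = 0.00213), and Pdgfra, the defining fibroblast receptor, had 532, 408 and 451 against 1087, 1046 and 1078 in the Cal and sham libraries (-1.21 ± 0.11, adjusted p = 6.9e-05). Both were lower in every Cal library than in any sham library. Pdgfrb (-0.69), Rgs5 (-0.52), Myh11 (-0.34) and Tcf21 (-0.82) were negative within the fold limit. The intermediate filament gene Des, also made by cardiomyocytes, was positive (0.51), and the 6 pericyte and smooth muscle markers summed to 44541, 44033 and 44836 normalized counts in the Cal libraries and 41536, 41029.8 and 44497 in the sham libraries. Des carried the higher Cal sums, with means of 29349.5 in the Cal and 20672.4 in the sham libraries, and the other 5 listed markers were negative. All 5 listed fibroblast markers were negative, summing to 12424, 9597 and 11998 normalized counts in the Cal libraries and 15016, 14495 and 16099.9 in the sham libraries. Col1a1, Col1a2 and Col3a1 were not listed. The part of cell numbers in the falls was not tested.

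Among immune cells, the macrophage list divided. Cd14 was called higher, Timd4 (1.04) passed the fold limit but fell short of it (0.96 to 0.99) without the first or the third library of either group, Ccr2 and Cx3cr1 were called lower, and Mrc1 (-0.49) and Mertk (-0.57) were within the fold limit. The sums of the 7 listed members were 3699.5, 4389.6 and 3728 and 3185, 3295 and 3329 in the Cal and sham libraries. Cd14 carried the higher Cal sums, with means of 1612 in the Cal and 146 in the sham libraries, and 5 of the 7 members were negative. Adgre1, Csf1r, Cd68 and Lyz2 were not listed. The 2 listed dendritic cell markers went opposite ways. Clec9a, a marker of cross-presenting dendritic cells, fell by 1.63 ± 0.30, while Zbtb46 was positive within the fold limit (0.80). The mast cell receptor Kit fell by 1.04 ± 0.21, or to -0.81 without the second Cal library. The kinase Pik3cg and the ATP receptor P2rx7, both used by leukocytes, were lower at -1.85 and -1.33. These falls do not stand for leukocyte genes as a whole. Of 14 listed phosphoinositide kinase, phosphatase and Akt genes 1 was called lower, Pik3cg, and 1 higher, Pik3r5 (3.15). Of the 12 listed cytokine receptors and antagonists 8 were called higher and none lower. No T cell, NK cell, lymphatic or adipocyte marker was listed. Of the haemoglobin genes, Hbb-bt was called higher (1.2, and 0.83 after quantile normalization), and Hba-a1 (0.86) and Hbb-bs (0.43) were not.

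**Figure D5:**
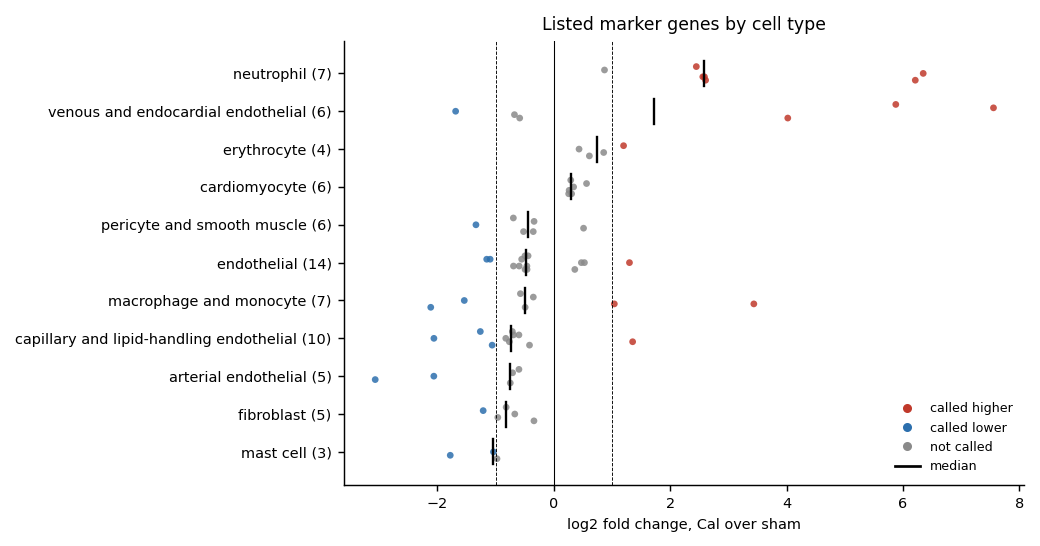
Log2 fold change (horizontal axis, Cal over sham libraries, 3 each) of listed marker genes of 11 cell types, with the number listed in parentheses, each point 1 gene and each bar the median. Neutrophil markers (median 2.59) lie highest, venous markers spread from -1.69 to 7.56, and arterial (-0.75), fibroblast (-0.82) and mast cell (-1.04) markers lie below 0.

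Zinc finger genes made up the largest group of falls among the lists used here. Of 92 listed genes named as Zfp, Zbtb or Zscan, most of which encode C2H2 DNA-binding proteins, 30 were called lower and 3 higher, with 79 negative values and a median of -0.80 (-0.92 after quantile normalization and -1.08 with median-ratio factors). They were modest and mostly faint. Zfp760 had 8.25, 6.31 and 10.5 in the Cal libraries and 40.1, 75.6 and 59.7 in the sham libraries (-2.65 ± 0.34, adjusted p = 0.000348), and Zfp366, an endothelial and dendritic factor, had 279, 241 and 239.9 against 519, 839 and 629 in the Cal and sham libraries (-1.36 ± 0.18, adjusted p = 0.000387). Zfp608 fell by 1.36 ± 0.25. The 3 called higher were Zfp36, an RNA-binding protein, Zfp593 (2.84) and Zfp46 (2.51). Read over the transcription factor families given in the table, the C2H2 family had 37 of 105 members called lower and 6 higher, the basic helix-loop-helix family 9 of 24 lower and 1 higher, the bZIP family 11 of 20 higher and 1 lower, and the Rel family 5 of 8 higher and none lower. Many zinc finger genes are near copies of each other, and reads of rat libraries were assigned to mouse gene names, so the counts of single members are uncertain.

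Other falls fitted none of these groups. The largest after Cxcr4 among genes with at least 100 normalized counts in sham hearts were Inka1 (14.4, 7.37 and 4.76 in the Cal libraries and 112, 133 and 136 in the sham libraries), an inhibitor of a p21-activated kinase, and Akap5 (33, 12.6 and 11.4 against 143, 118 and 144 in the Cal and sham libraries), an anchor of protein kinase A, with Hic1 (122, 27.4 and 32.4 in the Cal libraries and 335, 371 and 396 in the sham libraries), a transcriptional repressor found in mesenchymal progenitors. Cal library 1 was the highest of the Cal libraries in all 3 genes and still below every sham library. Ahr, the aryl hydrocarbon receptor, fell by 1.98 ± 0.23 on the log2 scale, and G0s2, an inhibitor of fat breakdown, fell by 1.26 ± 0.16.

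Muscle and mitochondrial genes were numerous but moved little. None of the 19 listed sarcomere genes was called, and all 19 had positive values with a median of 0.43, but after quantile normalization the median was -0.03 and 9 were positive. Myh6 had 335407, 334004 and 336025 against 312804, 247859 and 264424 in the Cal and sham libraries (0.29 ± 0.08, adjusted p = 0.0103), which became 0 after quantile normalization, and the calcium pump gene Atp2a2 had 0.26 ± 0.07, which became -0.02 with median-ratio factors. Respiratory chain and citrate cycle genes, listed together with 7 mitochondrial tRNA genes, were positive in 54 of 56 cases (median 0.43). After quantile normalization 26 of 56 were positive (median -0.01). Of the 7 genes called higher in this list 6 lie on the mitochondrial genome, and 4 of those are tRNA genes, which encode no protein. Over all listed genes 18.0% were called higher. Ndufs6b (-1.24) was called lower. The complex I subunit mt-Nd4l had 9828, 10034 and 7217 in the Cal libraries and 2348, 1645 and 1641 in the sham libraries (2.27 ± 0.17, adjusted p = 1.82e-05), and mt-Atp6 had 18368, 19880.1 and 20282 against 7288, 10918 and 5454 in the Cal and sham libraries (1.36 ± 0.21, adjusted p = 0.00094, and 0.91 after quantile normalization), while nuclear subunits such as Cox5a (0.49) and Sdha (0.31, and -0.04 after quantile normalization) were not called. Fatty acid genes were called in 2 of 24 cases, Etfb (1.04, or 0.93 without the first sham library) higher and G0s2 lower.

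The called genes shared features beyond their functions. Genes called higher had a median length of 3029 bases and genes called lower 3874 bases, against 4561 bases for those not called. Their median sham level was 74.7 normalized counts for the higher and 77.5 for the lower genes, against 578 for those not called. The selection of the list favours such a gap. A faint gene could pass the authors' test only with a large change, while an abundant gene could pass with a small one. Called genes also lay side by side in the mouse genome, in coordinates whose build is not given in the sources used here. Within 100000 bases of each other, Ccl2, Ccl7, Ccl11 and Ccl12 were all higher on chromosome 11, Ccl3, Ccl4, Ccl5 and Ccl9 formed a second block there (Ccl9 at 1.04, and 0.84 to 0.97 without the first sham library, the third sham library or the second Cal library), and Cxcl9, Cxcl10 and Cxcl11 a block on chromosome 5. Zfp58, Zfp87, Zfp748 and Zfp729a were lower together on chromosome 13, the last pair short of the fold limit without the third Cal library (-0.84 and -0.98) or the second sham library (-0.92 and -0.90), and Zfp760, Zfp820 and Zfp983 on chromosome 17. Reads of such near-identical neighbours may have been shared between them.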

How the data were processed

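Poly(A) RNA of rat heart was sequenced by the authors as paired-end libraries, and reads were counted per gene. The study's methods name rat reference sequences, whereas the submitters' processing notes list Bowtie 0.12.2 with the mouse builds mm8 and mm9, and the deposited identifiers are mouse Ensembl genes. The genome build of the coordinates is not given in the sources used here. Each deposited value is a signal, a count divided by 1 size factor per library (0.950 to 1.07), and 100% of the values were whole multiples of 1 read within 0.01. The authors' deposited p-value columns and fold changes come from their own comparison and were not used, except to find that the listed genes have an adjusted p-value of at most 0.04996. Deposited gene lengths served for levels per kilobase only.

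Libraries were grouped by their sample headings. Log2(normalized count + 1) was fitted with limma 3.58.1 (trended prior variance) in R 4.3.3 on 3 Cal and 3 sham libraries, with Benjamini-Hochberg adjustment over 2458 genes, and a call needed a log2 fold change over 1 in size with an adjusted p under 0.05. The script was tested on simulated data with 200 of 2458 genes changed, and it called 94% of changes of 1.5 and 98.5% of changes of 2 on the log2 scale. The smallest p of a two-sided exact permutation test of 3 against 3 is 0.1, so single genes were not tested that way. No library was a duplicate, as chi-square per degree of freedom between replicates was 10.9 to 23.9. Ratio intervals and floors cover counting error only. The p-values describe genes already selected on the same libraries.

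The genes and gene lists were chosen with earlier results of these data known. The naming rule took the strongest called and most abundant members of each list, the 15 largest changes per direction and the defining cell type markers (394 genes). Of 211 listed genes named in the text and recomputed as below, 54 lie outside it and were chosen after their values were seen. Esam, Zbtb46, Ndufs6b and Pik3r5, which lie under the rule, are named in addition. Results were recomputed with edgeR 4.0.16 and DESeq2 1.42.0 on recovered reads, without each library in turn, with a replicate block, after median-ratio or quantile scaling, with the pseudocount at 0.1 or 10, on genes with a mean of 10 or more, with no fold limit and at an adjusted p under 0.01. Promoters came from RefSeq (GRCr8), matched by symbol for 1800 of 2458 genes.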

Additional observations from a re-analysis of the deposited data

How the results depend on the processing

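The 712 calls, 443 higher and 269 lower, held their size under most settings. Leaving out 1 library in turn gave 679 to 775 calls, 421 to 470 higher and 251 to 305 lower. A pseudocount of 10 gave 402 and 200, quantile normalization 348 and 387, median-ratio scaling 342 and 447, and edgeR with TMM factors 359 and 406. All 269 lower calls remained under median-ratio scaling and 342 of the 443 higher ones, and no gene was called in the opposite direction under any setting. On the recovered reads with the authors' size factors, edgeR called 444 higher and 272 lower and DESeq2 445 and 272. With no fold limit 2454 genes passed, 1490 higher and 964 lower. Same-numbered libraries of the groups did not deviate together (correlations of -0.023, -0.116 and -0.14, against -0.123 to 0.226 for different numbers). With 3 libraries per group this cannot exclude a shared batch. The replicate block gave 713 calls, 443 higher and 270 lower. Among the 211 named genes recomputed, 7 changed sign under a scaling, namely C3 (-0.0739), Ldha (-0.0778), Sdha (-0.0359), Stat3 (-0.0505), Id3 (-0.0839) and Hk2 (-0.127) after quantile normalization and Atp2a2 (-0.0198) with median-ratio factors, and none of them was called in the first place. The cause of these shifts was not tested. Total depth is unknown, and for genes with a few reads per sham library the fold change depends on the pseudocount.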

Other observations

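Membrane receptors and transporters held both rises and falls. Of 35 listed G protein-coupled receptors and RGS genes 8 were called higher and 7 lower, where 18.0% of all listed genes were called higher and 10.9% lower. Gpr84 (4.46), a receptor for medium-chain fatty acids on activated myeloid cells, the platelet-activating factor receptor Ptafr (1.87) and the bradykinin receptor Bdkrb2 (1.54) were higher. The thrombin-responsive receptor F2rl3 (-2.01) and the adrenergic receptor Adra2b (-1.97) were lower with Aplnr. Of 55 listed solute carriers 10 were called higher, which is near the share of all listed genes, and 5 lower (3 without the third sham library). The carriers ranged from -1.81 for Slc26a3, an anion exchanger, to 4.21 for Slc16a11, with the cystine carrier Slc7a11 at 2.97.

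Some stress and growth-control genes were called. Mt1, a metallothionein that binds zinc, had 4159, 8980.2 and 6462 in the Cal libraries and 1527, 1999.8 and 1616 in the sham libraries (1.87 ± 0.25, adjusted p = 0.000416 by limma). Gadd45b (4.27) and the cell cycle inhibitor Cdkn1a (2.96) were higher, and the cell cycle phosphatase gene Cdc25b (-1.47) was lower. Of 26 listed chromatin genes 2 were called higher, a smaller share than the 18.0% of all listed genes, and 1 lower. The higher ones were the histone demethylase Kdm6b (2.42) and Arid5a (2.82), whose protein stabilises Il6 mRNA, and the lower one was Arid3a (-1.35).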
